A study of Homo sapiens with 12 samples.

Results

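Translation elongation and termination in the cytosol rest on a small set of protein factors. The 9 genes described here encode such factors or the kinase that acts on them, and they were chosen by name from the rows of the gene count table, which lists 57353 gene names. They are EEF1A1, EEF1B2, EEF1D and EEF1G of the eEF1 complex, EEF2 and its kinase EEF2K, and ETF1, GSPT1 and ABCE1, which act when a ribosome reaches a stop codon. Of the 9 genes, 8 had counts and passed the filter on low counts, among 12998 genes tested, and EEF1G had 0 counts in all 12 libraries. RNA was sequenced from MOLM-13, a human line established from acute myeloid leukemia (AML), whose receptor kinase FLT3 is activated by an internal tandem duplication (FLT3-ITD). The cells were treated for 15 hr with DMSO (vehicle) or with 3 nM quizartinib, also called AC220, a FLT3 kinase inhibitor. They were kept either in RPMI or in hBMSC-CM, equal parts of RPMI and of filtered medium from cultures of HS-5, a human bone marrow stromal line. The 4 groups (RPMI vehicle, RPMI quizartinib, hBMSC-CM vehicle and hBMSC-CM quizartinib) held 3 libraries each, all from this single cell line and with no stromal cells in the culture. The study describes its replicates as biological but not how they were kept separate, and p-values measure the spread between these libraries of 1 line. The libraries held 19966546 to 31546104 counts each, and levels are given as CPM, the counts of a gene per 1000000 counts of its library after TMM scaling, which corrects library sizes for composition. A gene with no count could lie at up to 0.0951 to 0.15 CPM depending on the library, a limit that covers counting error only.

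During elongation, eEF1A (EEF1A1) carries each aminoacyl-tRNA to the ribosome as a GTP-bound complex. EEF1B2 and EEF1D then exchange the spent GDP for GTP, and EEF1G anchors them. eEF2 (EEF2) moves the ribosome on by a codon, and eEF2 kinase (EEF2K), which depends on calmodulin, phosphorylates eEF2 and thereby slows elongation. At a stop codon, eRF1 (ETF1) reads the codon and releases the peptide with the help of the GTPase eRF3a (GSPT1), after which the ATPase ABCE1 splits the ribosome into its subunits. The mRNAs of eEF1A, eEF2 and the ribosomal proteins are classical TOP mRNAs, which begin with a C followed by a run of pyrimidines and are translated under the control of mTOR.

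The start sites of the factors fell into those with and those without such a run. In windows that hold 10 bases before and 20 bases from the annotated start on (RefSeq sequence, GRCh38.p14), a C at the start followed by at least 4 C or T bases was searched on the strand of the gene, and the capitals mark the whole run. The 3 windows with a run were:
EEF1A1: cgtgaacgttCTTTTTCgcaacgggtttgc
EEF1B2: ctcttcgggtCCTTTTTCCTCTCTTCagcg
EEF2: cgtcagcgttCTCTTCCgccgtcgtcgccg

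The windows of the elongation subunit EEF1G, of EEF2K and of the 3 termination and recycling factors are shown for contrast, and none holds a run at the annotated start:
EEF1G: cgggcggcttactttgcggcagcgccgaga
EEF2K: gcccgcttctgctcaacctagaccagcccc
ETF1: aggaagtgatgtcacaggccccatgtgagc
GSPT1: gaggagatccgctcacacacacgaggagga
ABCE1: gcggctgggcaccgccattttggccggtgg

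The windows lie at chr6:73521013-73521042 (minus strand) for EEF1A1, chr2:206159885-206159914 (plus) for EEF1B2, chr19:3985444-3985473 (minus) for EEF2, chr11:62573872-62573901 (minus) for EEF1G, chr16:22206268-22206297 (plus) for EEF2K, chr5:138543217-138543246 (minus) for ETF1, chr16:11915937-11915966 (minus) for GSPT1 and chr4:145098301-145098330 (plus) for ABCE1. A sequence was matched for 8 of the 9 factors, and EEF1D was not among them. The run was present in 679 of 14473 promoters in the RefSeq table (4.69%) and in 47 of 61 ribosomal protein promoters (77%). The E-box CACGTG, which reads the same on both strands, was searched from 250 bases before to 50 bases after the start. It was present in 8.94% of the promoters and, among the 8 matched factors, in EEF2K, 59 bases before the start. A match describes the letters and shows neither a binding site nor translational control. The run was searched from the annotated base only, so the lack of a match does not place EEF1G or another factor outside the TOP mRNAs.

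The libraries carried the markers of their label. All 10 myeloid leukemia markers were above the limit of a count of 0 in each library, and their summed level was 1299 to 2511 CPM. PTPRC was the most abundant of them in RPMI quizartinib and LYZ in the other groups, and MPO had the lowest group means (3.08 to 4.76 CPM). FLT3, whose product quizartinib inhibits, was at 209.3 ± 3.43 CPM (SD, n = 3) in RPMI vehicle and 453.7 ± 9.42 (SD, n = 3) in RPMI quizartinib, and it rose with the drug in both media, by 1.12 in RPMI and by 0.47 in hBMSC-CM on the log2 scale (adjusted p = 3.86e-16 and 3.79e-09). Of 12 stromal markers, COL3A1, THY1, LUM, DCN and POSTN were at 0 in all libraries, and 3 to 5 per library were above the limit of a count of 0. The summed level of the stromal markers was 3.83 to 4.29 CPM in RPMI vehicle, 11.1 to 13.5 CPM in RPMI quizartinib, 3.18 to 4.06 CPM in hBMSC-CM vehicle and 6.45 to 7.12 CPM in hBMSC-CM quizartinib, with TAGLN the most abundant in every library. Mitochondrially encoded genes took a share of counts of 0.683% to 0.79% in RPMI vehicle, 1.02% to 1.1% in RPMI quizartinib, 0.458% to 0.614% in hBMSC-CM vehicle and 0.683% to 0.947% in hBMSC-CM quizartinib. The part of either measure in the changes below was not tested. Replicate 1 of hBMSC-CM quizartinib stood somewhat apart from the other two of its group, with a chi-square statistic of 9.8 and 9.45 per gene against them, where those differed from each other by 3.16. Replicates 1 and 3 of hBMSC-CM vehicle differed by 10.5, and within the RPMI groups the highest value was 6.44. Results that rest on that quizartinib library are given with and without it.

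The factors covered a wide range of abundance. Together their counts made up 2.4% to 3.22% of each library, and EEF1A1 alone made up 1.62% to 2.21%. Per length, as TMM-scaled CPM divided by the length of the union of exons in kb, the level of EEF1A1 in RPMI vehicle was 1757 ± 15 CPM per kb (SD, n = 3), that of EEF2 was 1374 ± 30.7 and that of EEF1B2 was 482 ± 4.48. EEF1D (63.2 ± 1.16), ETF1 (57.5 ± 1.46), ABCE1 (53.7 ± 1.62) and GSPT1 (29.2 ± 0.34) followed on this scale, and EEF2K was the lowest at 9.78 ± 0.218 CPM per kb. With the median length of coding transcripts in place of the union of exons, the level of EEF1D in the same group was 729.8 ± 13.4 CPM per kb, since its union of exons is long, while EEF1A1 (8997 ± 76.7) and EEF2 (3148 ± 70.3) remained the highest and EEF2K (10.6 ± 0.237) the lowest.

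**Figure D1:**
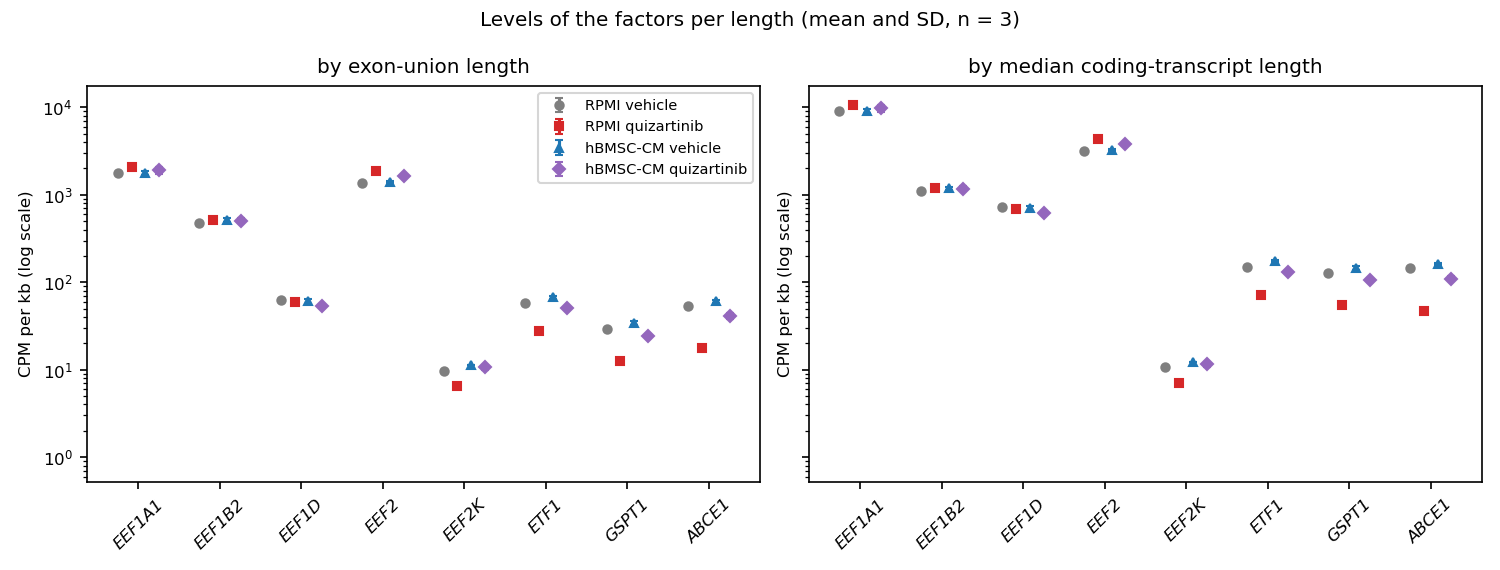
TMM-scaled CPM per kb of the 8 measured factors (logarithmic axis) in the 4 groups, by the length of the union of exons (left) and by the median length of coding transcripts (right). Points are means and bars SDs of 3 libraries. EEF1A1 and EEF2 stand highest and EEF2K lowest on both scales, and the quizartinib points of ETF1, GSPT1, ABCE1 and EEF2K in RPMI lie below those of the other groups.

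Across the 12 libraries the elongation factors varied little and the termination factors varied most. The SD of log2 CPM over all libraries was 0.06 for EEF1B2, 0.11 for EEF1D, 0.13 for EEF1A1 and 0.2 for EEF2, against 0.34 for EEF2K, 0.51 for ETF1, 0.57 for GSPT1 and 0.73 for ABCE1. The range from the lowest to the highest library was 0.18 on the log2 scale for EEF1B2 and 1.86 for ABCE1.

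**Figure D2:**
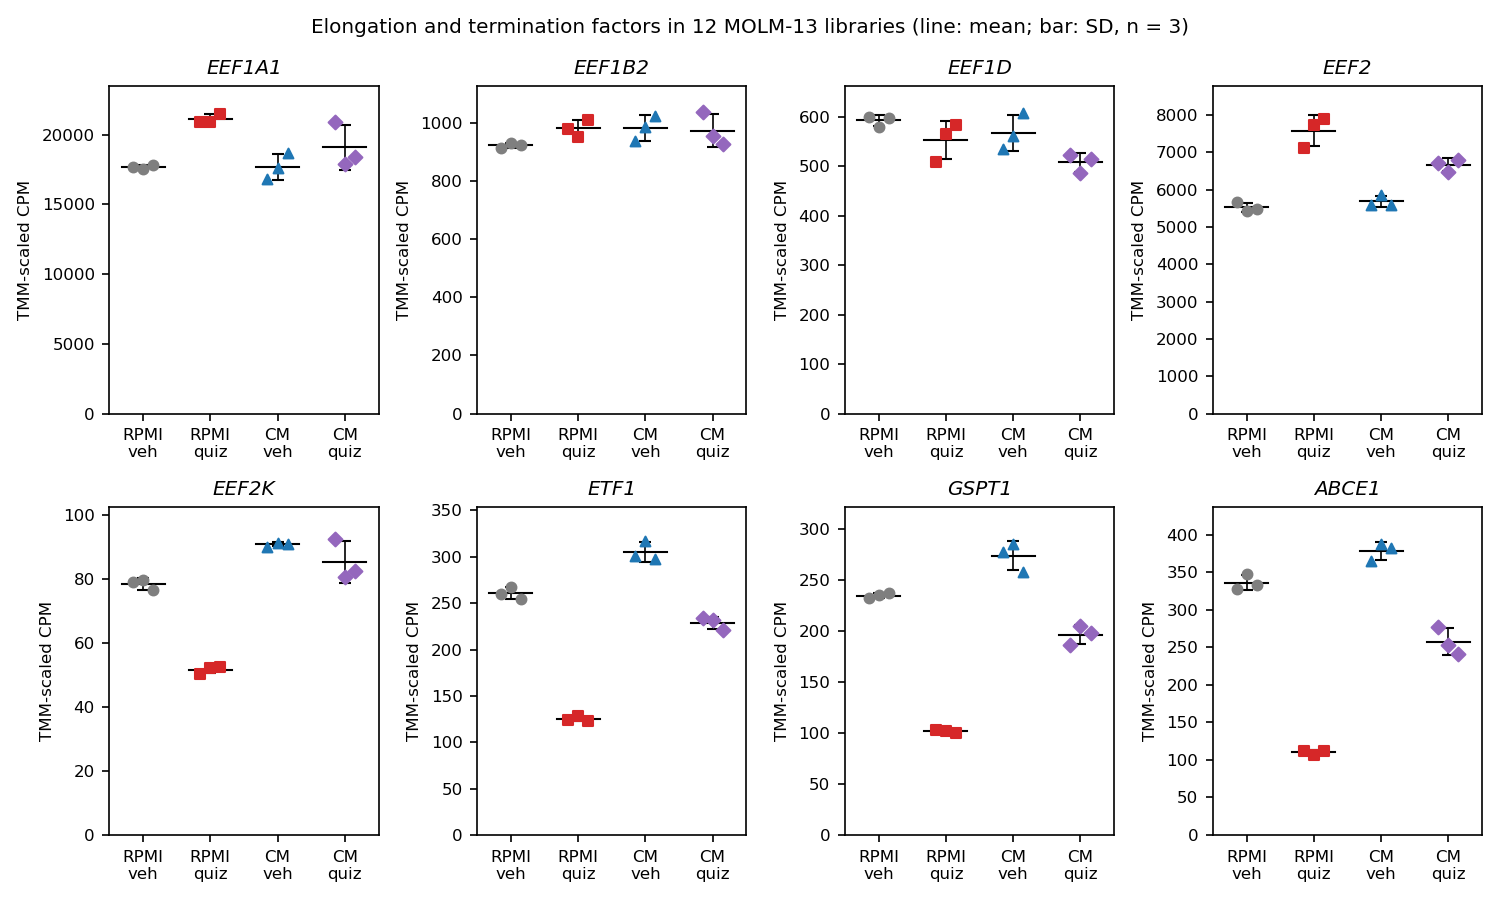
TMM-scaled CPM of each measured factor in every library, with axes that start at 0. Each point is 1 library, the line is the mean and the bar the SD of 3 libraries (veh, vehicle; quiz, quizartinib; CM, hBMSC-CM). The RPMI quizartinib points of ETF1, GSPT1, ABCE1 and EEF2K lie below every other library, and those of EEF2 lie above every other library.

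Quizartinib in RPMI, compared with vehicle, lowered the termination and recycling factors and the eEF2 kinase, and raised EEF2 and EEF1A1. The levels of EEF1B2 and EEF1D did not pass the test. In bulk RNA, fewer cells of a kind and less RNA of a gene per cell cannot be told apart. CPM is also relative to the other RNA of a library, so a rise or fall in CPM need not be one per cell. In other samples the study reported less RNA with quizartinib, in whole lysates and more so in heavy polysomes. In this comparison 10307 genes (79.3% of those tested) were called at an adjusted p under 0.05, 40.1% higher and 39.2% lower. Of the 8 factors, 2 were called higher and 4 lower, a total share close to that background. For 7 of the 8, all but EEF1D, the groups did not overlap, against 81.1% of tested genes. The median log2 fold change of the 8 was −0.35, against 0.03 over all tested genes. In hBMSC-CM, where 67.1% of genes were called, 33.4% higher and 33.7% lower, quizartinib lowered ETF1, GSPT1, ABCE1 and EEF1D and raised EEF2, with a median over the 8 of −0.12. The groups did not overlap for these 5, against 68.4% of tested genes. Here the share of higher genes among the calls was 49.8%, but 62.8% when libraries were scaled by their size alone and 60.0% with upper-quartile factors.

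The media were also compared under the drug. In hBMSC-CM against RPMI with quizartinib, where 69.8% of genes were called, 35.5% higher and 34.3% lower, ABCE1, GSPT1, ETF1 and EEF2K were higher and EEF2 and EEF1A1 were lower, with a median over the 8 of 0.36. The groups did not overlap for 5 of them (71.5% of tested genes), and those of EEF1A1 did. With vehicle, where 32.1% of genes were called, 16.6% higher and 15.5% lower, hBMSC-CM raised ETF1, GSPT1, EEF2K and ABCE1 by smaller amounts, and none of the other 4 passed the test. The groups did not overlap for these and for EEF1B2, 5 in all, where 44.6% of tested genes did not. With vehicle, 51.8% of the calls were higher, but 45.7% with library size alone and 42.1% with upper-quartile factors. These comparisons share groups with those of the drug, so they are not independent of them.

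**Figure D3:**
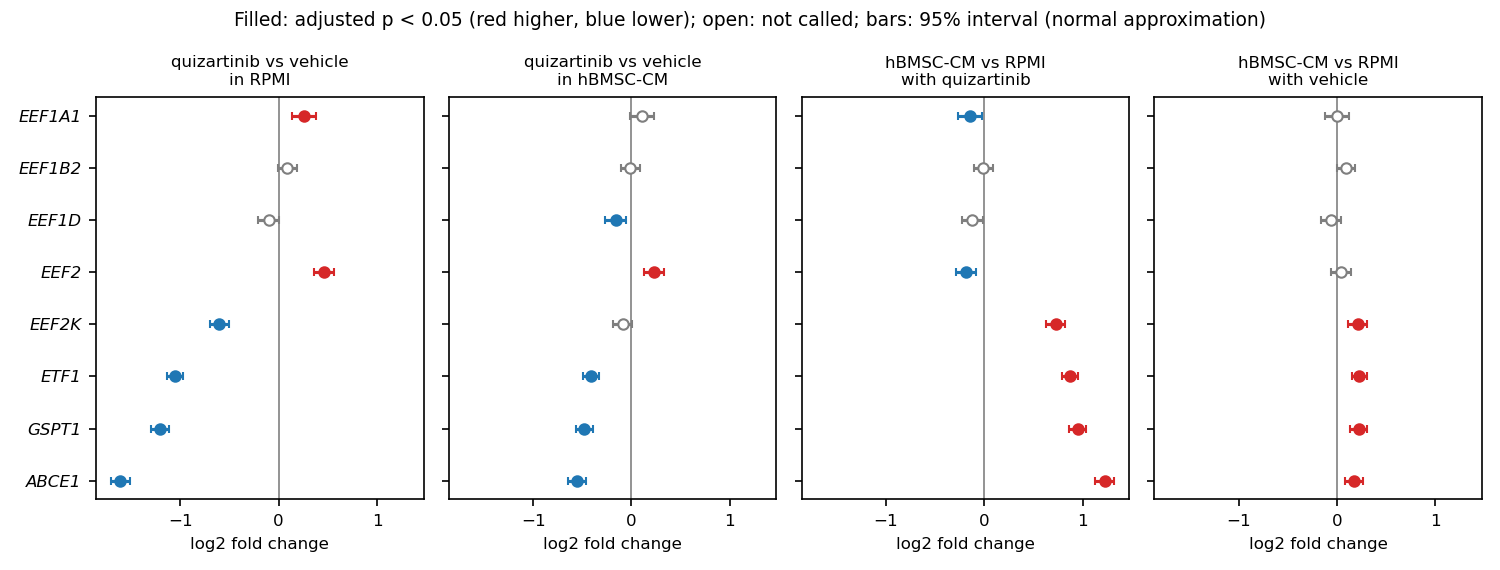
Log2 fold change of each measured factor in 4 comparisons, with its 95% interval (normal approximation). Filled points passed an adjusted p under 0.05 in edgeR's quasi-likelihood test (red, higher; blue, lower) and open points did not. ABCE1, at −1.61 in RPMI and −0.56 in hBMSC-CM, has the lowest value of the 8 factors in both drug comparisons.

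ABCE1, the recycling ATPase, had the largest fall with quizartinib among the factors in both media. In RPMI vehicle its levels were 328, 347 and 333 CPM in replicates 1, 2 and 3, and in RPMI quizartinib they were 111, 107 and 112 CPM. In hBMSC-CM they were 365, 387 and 382 CPM with vehicle and 277, 254 and 241 CPM with quizartinib. The 4 groups did not overlap, and their order was hBMSC-CM vehicle, RPMI vehicle, hBMSC-CM quizartinib and RPMI quizartinib. With quizartinib, ABCE1 fell in RPMI by 1.61 on the log2 scale (SE 0.0495, adjusted p = 2.38e-17), to 0.328 of the vehicle level, and by 0.56 in hBMSC-CM (SE 0.0476, adjusted p = 2.04e-09), to 0.681 of it. With quizartinib it was 2.34-fold higher in hBMSC-CM than in RPMI (SE of the log2 change 0.0493, adjusted p = 6.15e-15), and with vehicle 1.13-fold higher (SE 0.0472, adjusted p = 0.00852). Against the rest of the genes, the fall in RPMI placed ABCE1 at percentile 4.98 of all tested log2 fold changes. The gene lies at chr4:145098288-145129524 on the plus strand.

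GSPT1, the GTPase partner in release, followed the same order of groups. Its levels were 232, 235 and 238 CPM in RPMI vehicle and 103, 102 and 100.2 CPM in RPMI quizartinib. They were 278, 286 and 258 CPM in hBMSC-CM vehicle and 187, 205 and 199 CPM in hBMSC-CM quizartinib. All 4 groups were separate, and the RPMI quizartinib libraries stood lowest by the widest gap. In RPMI the drug lowered GSPT1 by a log2 fold change of −1.21 (SE 0.0458, adjusted p = 7.84e-16) and in hBMSC-CM by −0.48 (SE 0.0445, adjusted p = 7.13e-09). With the drug present it was 1.93-fold higher in hBMSC-CM than in RPMI (SE of the log2 change 0.0459, adjusted p = 1.26e-13). GSPT1 lies at chr16:11868128-11916082 on the minus strand. GSPT2, an intronless relative of GSPT1 that encodes eRF3b, had 0 counts in all libraries.

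ETF1, the reader of stop codons, moved with GSPT1. Its levels were 260.2, 268 and 254 CPM in RPMI vehicle and 124, 128 and 123 CPM in RPMI quizartinib. They were 301, 317 and 298 CPM in hBMSC-CM vehicle and 234, 232 and 221 CPM in hBMSC-CM quizartinib. As for GSPT1, the groups did not overlap. The log2 fold change of ETF1 with the drug was −1.06 in RPMI (SE 0.042, adjusted p = 1.65e-15) and −0.42 in hBMSC-CM (SE 0.041, adjusted p = 1.72e-08). Between the quizartinib groups it was 1.83-fold higher in hBMSC-CM (SE of the log2 change 0.042, adjusted p = 1.23e-13). Over the 12 libraries, the root mean square difference between the centred log2 CPM of ETF1 and GSPT1 was 0.08, the smallest of the 28 pairs among the 8 measured factors. ETF1 lies at chr5:138506095-138543236 on the minus strand.

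With quizartinib in hBMSC-CM these 3 genes were below RPMI vehicle. In that comparison 62.1% of genes were called, 30.6% higher and 31.6% lower, and 49.2% of the calls were higher (62.1% of them with library size alone). ABCE1 was lower by a log2 fold change of −0.38 (adjusted p = 5.5e-07), GSPT1 by −0.26 (adjusted p = 4.07e-05) and ETF1 by −0.19 (adjusted p = 0.000474). With library size alone the falls were smaller and still called. ABCE1 was at −0.30 (adjusted p = 1.06e-05), GSPT1 at −0.17 (adjusted p = 0.00307) and ETF1 at −0.10 (adjusted p = 0.0308). With TMM, EEF1D was lower too (−0.22, adjusted p = 0.00121), and EEF2 was higher (0.27, adjusted p = 0.000132). With library size alone EEF1D was at −0.135 (adjusted p = 0.027). EEF1A1 did not pass the test with TMM (0.11, adjusted p = 0.136). It was called higher with library size alone (0.195, adjusted p = 0.00458) and with upper-quartile factors (0.16, adjusted p = 0.0259). These scalings also raised the share of higher genes among all calls, to 57.4% with upper-quartile factors. With TMM and without replicate 1 of hBMSC-CM quizartinib, EEF1A1 was at 0.037 (adjusted p = 0.583). The groups did not overlap for 7 of the 8, all but EEF1B2, against 66.3% of tested genes. In hBMSC-CM vehicle against RPMI quizartinib, where 82.5% of genes were called, 40.8% higher and 41.7% lower, ABCE1 was 3.43-fold, GSPT1 2.69-fold and ETF1 2.44-fold higher (adjusted p = 3.35e-18, 3.57e-17 and 4.72e-17). Here 6 of the 8 had groups that did not overlap, against 82.4% of tested genes, and the exceptions were EEF1B2 and EEF1D.

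EEF2 and its kinase moved in opposite directions with quizartinib in RPMI. The levels of EEF2 were 5665, 5437 and 5471 CPM in RPMI vehicle and 7121, 7735 and 7905 CPM in RPMI quizartinib. In hBMSC-CM they were 5586, 5868 and 5602 CPM with vehicle and 6729, 6473 and 6801 CPM with quizartinib. The vehicle groups overlapped, and each quizartinib group stood above both of them, with RPMI quizartinib the highest. EEF2 rose by 0.46 on the log2 scale in RPMI (SE 0.0522, adjusted p = 6.79e-08) and by 0.23 in hBMSC-CM (SE 0.0521, adjusted p = 6e-04). Between the quizartinib groups the level in hBMSC-CM was the lower (−0.19, SE 0.0521, adjusted p = 0.00337). EEF2 lies at chr19:3976056-3985463 on the minus strand.

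EEF2K showed its lowest level in RPMI quizartinib. Its levels were 79.2, 79.8 and 76.5 CPM in RPMI vehicle and 50.4, 52.2 and 52.5 CPM in RPMI quizartinib. They were 90.2, 91.4 and 91.1 CPM in hBMSC-CM vehicle and 92.7, 80.5 and 82.7 CPM in hBMSC-CM quizartinib. Replicate 1 of hBMSC-CM quizartinib lay above the hBMSC-CM vehicle libraries and the other two lay below them. In RPMI the log2 fold change of EEF2K was −0.60 (SE 0.0499, adjusted p = 4.13e-10). In hBMSC-CM the change was −0.09 (SE 0.0482, adjusted p = 0.112), and without replicate 1 of hBMSC-CM quizartinib it was −0.16 (adjusted p = 0.00573). With quizartinib EEF2K was 1.65-fold higher in hBMSC-CM than in RPMI (SE of the log2 change 0.0498, adjusted p = 4.23e-11) and 1.16-fold higher with vehicle (SE 0.0483, adjusted p = 0.00217). Quizartinib in hBMSC-CM against vehicle in RPMI gave 0.12 (adjusted p = 0.0346), which was lost without RPMI vehicle replicate 1 (adjusted p = 0.0644) or 3 (0.123) and without replicate 1 of hBMSC-CM quizartinib, where the value was 0.06 (adjusted p = 0.316). It was also lost with the DESeq2 Wald test (0.11, adjusted p = 0.0738) and without the filter on low counts (0.10, adjusted p = 0.211). EEF2K lies at chr16:22206278-22288738 on the plus strand.

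EEF1A1 rose with quizartinib in RPMI by 19.3%. In RPMI vehicle its levels were 17701, 17526 and 17826 CPM, and in RPMI quizartinib 20876, 20931 and 21508 CPM. In hBMSC-CM they were 16841, 17587 and 18693 CPM with vehicle and 20923, 17916 and 18389 CPM with quizartinib. Replicate 1 of the latter reached the RPMI quizartinib libraries, and the other two lay within the range of hBMSC-CM vehicle. EEF1A1 rose by 0.26 on the log2 scale in RPMI (SE 0.0626, adjusted p = 0.000901), and the change in hBMSC-CM was 0.11 (SE 0.0626, adjusted p = 0.136) and did not pass the test. Without replicate 1 of hBMSC-CM quizartinib it was 0.035 (adjusted p = 0.593), and without replicate 1 of hBMSC-CM vehicle it was 0.071 (adjusted p = 0.386), while it passed the test at 0.21 with library size alone (adjusted p = 0.00226) and at 0.19 with upper-quartile factors (adjusted p = 0.0105). Between the quizartinib groups the level was lower in hBMSC-CM (log2 fold change −0.15, SE 0.0626, adjusted p = 0.0438). This call rested on the whole set of libraries. It was lost in 10 of the 12 fits that left out 1 library, at an adjusted p of 0.0543 to 0.239, and it was kept only without hBMSC-CM vehicle replicate 3 or hBMSC-CM quizartinib replicate 1. It was also lost in 5 of 11 other settings. EEF1A1 lies at chr6:73489308-73525587 on the minus strand.

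EEF1A1 and EEF1B2 have processed copies in the genome, and reads that fit several copies cannot be assigned from a count table. The table has 39 rows named as EEF1A1 pseudogenes, 27 of them with counts and 10 tested. Together they held 8.75% to 11.1% of the counts of the gene and its copies. The largest, EEF1A1P5, was at 1666 ± 107 CPM in RPMI vehicle and 2030 ± 83.3 CPM in RPMI quizartinib (SD, n = 3), and its change in RPMI was 0.29 (adjusted p = 0.000478), next to 0.26 for EEF1A1 itself. In hBMSC-CM the copy rose by 0.29 (adjusted p = 0.000633), where EEF1A1 did not pass the test, and between media under quizartinib it was at 0.06 (adjusted p = 0.405), where EEF1A1 was at −0.15. With the pseudogene rows added to EEF1A1 (a choice made once the data had been seen) the difference between media under quizartinib was −0.13 (adjusted p = 0.0842). EEF1B2 has 8 such rows, which held 8.16% to 9.57% of the counts, with EEF1B2P3 the largest. EEF1D also has 8, which held 0.342% to 0.696%, and ETF1 has 3, which held 0.163% to 0.527%. EEF1G has 8 as well, 5 of them with counts although the gene itself had none, and EEF1GP5 is the largest.

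The nucleotide exchange subunits changed little. EEF1B2 was at 913, 929.9 and 924 CPM in RPMI vehicle, 980.0, 949.9 and 1011 CPM in RPMI quizartinib, 936, 985 and 1024 CPM in hBMSC-CM vehicle and 1037, 954 and 926 CPM in hBMSC-CM quizartinib. The RPMI vehicle libraries were lowest, below those of RPMI quizartinib and hBMSC-CM vehicle, and they overlapped with hBMSC-CM quizartinib. None of the 6 pairs of groups passed the test, and the largest log2 fold change, hBMSC-CM against RPMI with vehicle, was 0.09 (95% interval −0.006 to 0.185, adjusted p = 0.167). The value for quizartinib in RPMI was also 0.09 (95% interval −0.008 to 0.183, adjusted p = 0.103), and it passed the test under other scalings, at 0.18 with library size alone (adjusted p = 0.00149) and 0.19 with upper-quartile factors (adjusted p = 0.00131). It also passed at 0.14 with a mean of at least 5 CPM (adjusted p = 0.015) and at 0.08 in a fit of the RPMI groups alone (adjusted p = 0.0496), and without the filter it was −0.01 (adjusted p = 0.875). Upper-quartile factors moved the median of all tested genes in this comparison from 0.03 to 0.13, and relative to that median EEF1B2 stood at 0.06 under each of the 4 scalings tried. For quizartinib in hBMSC-CM against vehicle in RPMI, EEF1B2 was at 0.08 (adjusted p = 0.181). There it passed the test at 0.16 with library size alone (adjusted p = 0.0042) and at 0.13 with upper-quartile factors (adjusted p = 0.0236). Relative to the median of all genes it stood at 0.07 under each of the 4 scalings. EEF1B2 lies at chr2:206159585-206162928 on the plus strand.

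EEF1D was at 600.2, 581 and 599 CPM in RPMI vehicle, 509, 567 and 584 CPM in RPMI quizartinib, 536, 561 and 608 CPM in hBMSC-CM vehicle and 524, 487 and 515 CPM in hBMSC-CM quizartinib. The hBMSC-CM quizartinib libraries were below those of both vehicle groups, and the other groups overlapped. EEF1D was lower with quizartinib in hBMSC-CM (−0.16, SE 0.0535, adjusted p = 0.0128), but not without hBMSC-CM vehicle replicate 3 (−0.11, adjusted p = 0.0852) or hBMSC-CM quizartinib replicate 2 (−0.13, adjusted p = 0.077), nor with library size alone (−0.06, adjusted p = 0.35), upper-quartile factors (−0.08, adjusted p = 0.208) or a mean of at least 5 CPM (−0.12, adjusted p = 0.0646). Between media under quizartinib its log2 fold change of −0.12 just missed the threshold (adjusted p = 0.0506) and passed it in 9 of 11 other settings, but in 3 of the 12 fits that left out 1 library, where it ranged from −0.18 to −0.08. With quizartinib in RPMI its log2 fold change was −0.10 (adjusted p = 0.0883), which is −0.13 relative to the median of all genes under each of the 4 scalings, and −0.04 without RPMI quizartinib replicate 1 (adjusted p = 0.502). It passed the test without RPMI quizartinib replicate 3 (−0.14, adjusted p = 0.0405) or hBMSC-CM vehicle replicate 3 (−0.11, adjusted p = 0.0425), in a fit of the RPMI groups alone (−0.11, adjusted p = 0.0394) and without the filter on low counts (−0.20, adjusted p = 2.81e-05). EEF1D lies at chr8:143579697-143599541 on the minus strand, where exons of genes on the opposite strand cover 34.0% of its exon bases in GENCODE release 44, and the sources do not state whether the counting used strand.

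EEF1G had no count in any library, while EEF1B2 and EEF1D, which it anchors, were both abundant. In GENCODE release 44, which is later than the annotation of the table, 99.7% of its exon bases at chr11:62559596-62574086 lie within exons of another gene on the same strand, ENSG00000255508. Whether its reads were lost to that overlap in the counting was not tested, and the value of 0 is not read as absence of the mRNA.

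The response to quizartinib differed between the media for 5 of the 8 factors. In the test of the difference itself, the interaction of drug and medium, 45.2% of all tested genes were called, 26.1% higher and 19.2% lower in hBMSC-CM. The factors called higher, with a smaller fall in hBMSC-CM than in RPMI, were ABCE1 (1.05, SE 0.0681, adjusted p = 6.27e-11), GSPT1 (0.73, SE 0.0636, adjusted p = 6.93e-09), ETF1 (0.64, SE 0.0584, adjusted p = 1.29e-08) and EEF2K (0.52, SE 0.0693, adjusted p = 3.5e-06). EEF2 was called lower, with a smaller rise in hBMSC-CM (−0.23, SE 0.0737, adjusted p = 0.0158), and this call was lost without hBMSC-CM vehicle replicate 2 (−0.20, adjusted p = 0.0592) or hBMSC-CM quizartinib replicate 2 (−0.20, adjusted p = 0.0525). For EEF1A1 the value was −0.15 (adjusted p = 0.185) with all libraries and −0.22 (adjusted p = 0.0231) without replicate 1 of hBMSC-CM quizartinib. EEF1B2 (−0.10, 95% interval −0.236 to 0.033) and EEF1D (−0.06, 95% interval −0.206 to 0.090) did not pass the test, and their intervals do not include changes of the size seen for ETF1, GSPT1 or ABCE1.

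The wider set of genes that serve these factors also fell more often than it rose with quizartinib in RPMI. The lists hold 63 further genes, of which 61 were tested, and 39 were lower, 12 higher and 10 not called, where 39.2% of all tested genes were lower and 40.1% higher. Their median log2 fold change was −0.38, against 0.03 over all tested genes. In hBMSC-CM 37 were lower and 8 higher (median −0.21), against 33.7% and 33.4% of all genes. With quizartinib, 33 were higher and 11 lower in hBMSC-CM than in RPMI (median 0.17), against 35.5% and 34.3% of all genes, and with vehicle 14 were higher and 3 lower (median 0.07), against 16.6% and 15.5%. In the interaction, 30 were higher and 5 lower (median 0.19), against 26.1% and 19.2%. Because the lists were chosen with earlier results of these data known, these shares are no independent test.

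**Figure D4:**
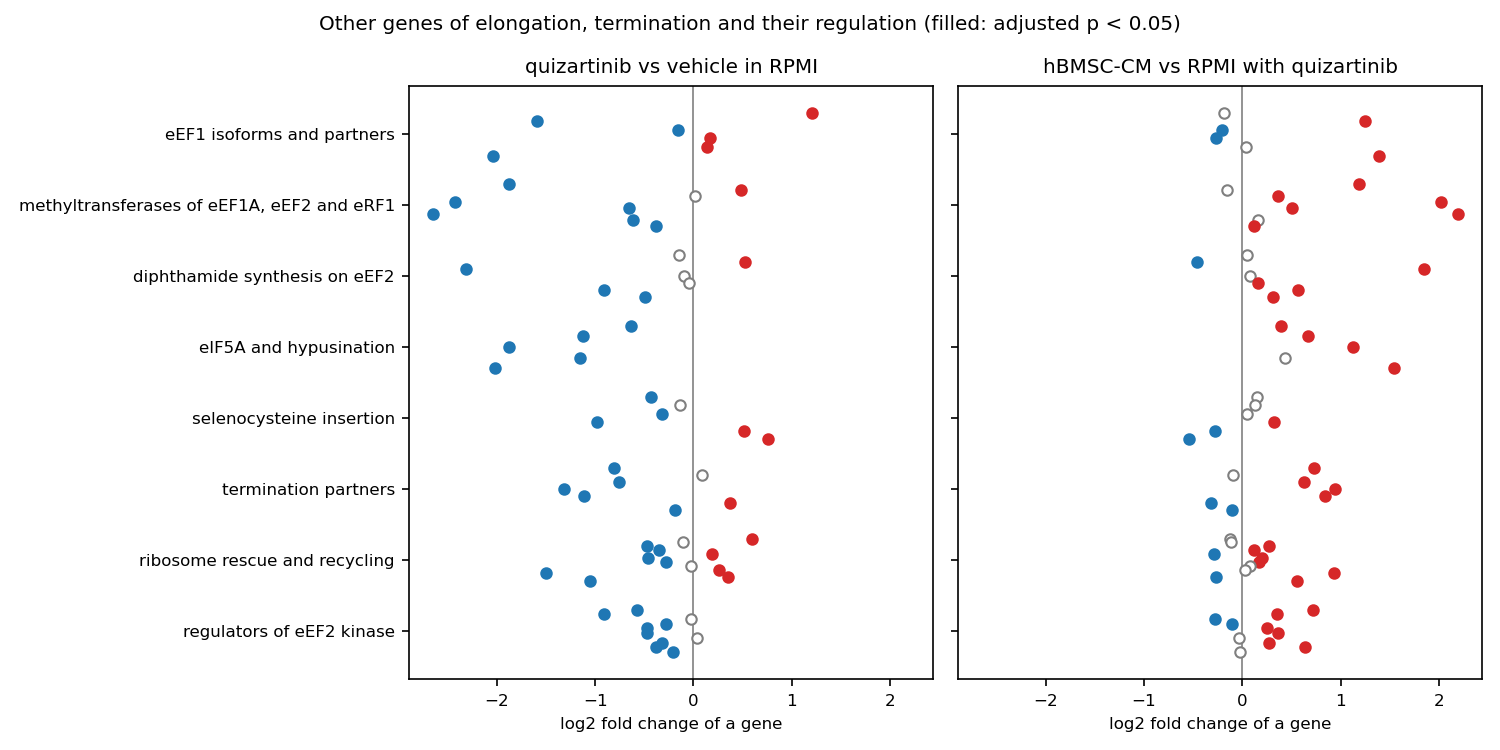
Log2 fold changes of the 61 tested genes of the 8 lists, each point 1 gene, with quizartinib against vehicle in RPMI (left) and hBMSC-CM against RPMI with quizartinib (right). Filled points passed an adjusted p under 0.05 (red, higher; blue, lower). On the left 39 points are blue and 12 red, and on the right 11 are blue and 33 red. The panels share the RPMI quizartinib libraries.

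Among the partners of eEF1, 3 of 6 genes were higher and 3 lower with quizartinib in RPMI, with a median of −0.01, shares not far from the 40.1% and 39.2% of all tested genes. VARS, the valyl-tRNA synthetase that binds the eEF1 complex, stood at 400.0 ± 4.85 CPM in RPMI vehicle and 97.8 ± 6.17 CPM in RPMI quizartinib (SD, n = 3), with a log2 fold change of −2.03 (SE 0.0523, adjusted p = 1.35e-18). EEF1E1, a scaffold protein of the tRNA synthetase complex, fell by 1.59 (adjusted p = 2.92e-12). The increases were small for TPT1 (0.14) and GTPBP2 (0.17). EEF1A2, the second eEF1A isoform, was named although its mean level lies under the 10 CPM of the rule: it stood at 1.29 ± 0.104 CPM in RPMI vehicle and 3.01 ± 0.388 CPM in RPMI quizartinib (SD, n = 3). Between the quizartinib groups, VARS (1.39) and EEF1E1 (1.24) were higher in hBMSC-CM, and GTPBP1 (−0.20) and GTPBP2 (−0.27) were lower.

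The enzymes that modify the factors form separate lists. Of 8 genes for the methylation of eEF1A, eEF2 and eRF1, which include TRMT112, the activating subunit of the eRF1 methyltransferase, 6 were lower and 1 higher in RPMI with the drug (median −0.64), where 39.2% of all tested genes were lower and 40.1% higher. EEF2KMT, which methylates a lysine of eEF2, stood at 21.1 ± 0.998 CPM in RPMI vehicle and 3.37 ± 0.104 CPM in RPMI quizartinib (SD, n = 3), with a log2 fold change of −2.65 (SE 0.0866, adjusted p = 6.5e-17), and between the quizartinib groups it was 4.58-fold higher in hBMSC-CM (adjusted p = 9.08e-15). EEF1AKMT1, which methylates eEF1A, fell by 1.87 (adjusted p = 3.98e-15). Of 7 genes for diphthamide, the modified histidine of eEF2, 3 were lower, 1 was higher and 3 were not called (median −0.15), a share of lower genes close to that background. DPH2, which acts in its first step, fell by 2.31 (SE 0.0605, adjusted p = 1.81e-18), DPH6, which acts in the last, fell by 0.91, and DPH1, the partner of DPH2, rose by 0.53 (adjusted p = 3.01e-07).

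All 5 genes of eIF5A and its hypusine modification were lower in RPMI with quizartinib (median −1.16), where 39.2% of all tested genes were lower. EIF5A, which aids peptide bond formation and release, stood at 412 ± 19 CPM in RPMI vehicle and 112 ± 5.83 CPM in RPMI quizartinib (SD, n = 3), with a log2 fold change of −1.88 (SE 0.0512, adjusted p = 3.33e-18). Between the quizartinib groups it was 2.19-fold higher in hBMSC-CM (adjusted p = 3.81e-14). EIF5AL1 fell by 2.02, but it is a near copy of EIF5A and its reads may be shared. In hBMSC-CM 4 of the 5 genes were lower with the drug, against 33.7% of all tested genes, and the exception was DHPS (0.13, adjusted p = 0.471), which lies under the 10 CPM of the rule.

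Of 7 tested termination partners, 5 were lower and 1 higher in RPMI with quizartinib (median −0.75), against 39.2% and 40.1% of all tested genes, and the share called in either direction was near the 79.3% of all genes. JMJD4, which hydroxylates eRF1, fell by 1.32 (SE 0.0642, adjusted p = 5.47e-14), and OGFOD1, which hydroxylates a protein of the ribosomal decoding centre, fell by 1.11 (SE 0.0465, adjusted p = 4.2e-15). PABPC1, the poly-A binding protein that contacts eRF3, rose by 0.38 (SE 0.0897, adjusted p = 0.000694). The media differed under quizartinib, with JMJD4 (0.94) and OGFOD1 (0.84) higher in hBMSC-CM, and PABPC1 (−0.32) and UPF1 (−0.10), the helicase of nonsense-mediated decay, lower.

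The 12 genes of ribosome rescue and recycling were mixed, with 6 lower and 4 higher in RPMI under the drug (median −0.19), a share called close to the 79.3% of all tested genes. PELO, a relative of eRF1 that releases stalled ribosomes, fell to 0.354 of its vehicle level (SE of the log2 change 0.0766, adjusted p = 1.24e-13), and ZNF598, which marks collided ribosomes, fell by 1.06 (SE 0.0571, adjusted p = 3.17e-13). ANKZF1 (0.60) and TCF25 (0.36), both of ribosome quality control, rose. Of 6 selenocysteine genes, 3 were lower and 2 higher (median −0.23), again a share called near that of all genes, led by SEPHS1 (−0.98, adjusted p = 2.09e-14) and SEPSECS (0.76, adjusted p = 1.74e-10), the enzyme that makes selenocysteinyl-tRNA.

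Of the regulators of eEF2 kinase, 10 of 11 were tested, and 8 were lower and none higher with quizartinib in RPMI (median −0.35), against 39.2% and 40.1% of all tested genes. With library size alone or upper-quartile factors 7 were lower and 1 higher. CALM2, which encodes calmodulin, fell by 0.91 (SE 0.0527, adjusted p = 1.06e-12), while CALM3 was at −0.02 (adjusted p = 0.654) and changed sign under other scalings. With quizartinib, RPS6KB1 (0.64), which encodes the S6 kinase that inhibits EEF2K, was higher in hBMSC-CM relative to RPMI, and CALM3 (−0.28) and MAPKAPK2 (−0.11) were lower. PRKAA2, a catalytic subunit of AMPK, had 0 counts in all libraries, and PRKAA1 was measured.

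The ribosomal proteins, most of whose promoters share the pyrimidine run with EEF1A1, EEF1B2 and EEF2, and the initiation factors are given for comparison. Of 79 cytosolic ribosomal protein genes, 54 were higher and 6 lower with quizartinib in RPMI, with a median log2 fold change of 0.19, against 40.1% and 39.2% of all tested genes, and the values were 0.26 for EEF1A1, 0.09 for EEF1B2 and 0.46 for EEF2. In hBMSC-CM 23 were higher and 7 lower (median 0.05), the higher share being close to the 33.4% of all genes and the lower share below the 33.7%. In the interaction 5 were higher and 4 lower (median −0.11), against 26.1% and 19.2% of all genes. Of 33 initiation factor genes, 7 were higher and 18 lower in RPMI (median −0.18), against the same 40.1% and 39.2%. With quizartinib, 19 were higher and 6 lower in hBMSC-CM than in RPMI (median 0.17), against 7 and 21 of the ribosomal protein genes (median −0.07), or 7 and 39 with upper-quartile factors, where 35.5% of all genes were higher and 34.3% lower. Relative to the median of all genes, the ribosomal proteins stood at 0.16 and the initiation factors at −0.20 in RPMI under each of the 4 scalings. No test was made between these lists and the factors.

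Other genes with patterns like those of the factors were found by the root mean square difference of centred log2 CPM over the 12 libraries, among 9287 genes that averaged 10 CPM or more. The nearest to EEF1A1 were SNHG29, RPL37 and RPL30 (0.030 to 0.034), and the nearest to EEF1B2 were ATP5F1C, RPL10A and RPL38 (0.029 to 0.035). PPP1CA was nearest to EEF1D (0.044), ANXA6 to EEF2 (0.036) and CNBP to EEF2K (0.049). The nearest to ETF1 were OGFOD1, also on the list of termination partners, and AMD1 (0.038 and 0.040), the nearest to GSPT1 was RNASEH1 (0.045), and the nearest to ABCE1 were RPL22L1 and PES1 (0.042 and 0.060). Among the factors themselves, ABCE1 stood 0.17 from GSPT1 and 0.22 from ETF1, but 0.87 from EEF2. These values describe 12 libraries that share the 4 treatments.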

How the data were processed

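Poly-A RNA was sequenced as paired ends. Per the labels and the study's methods, the authors trimmed reads with BBDuk, aligned them to hg38 with STAR 2.6.0a and the Ensembl annotation, and deposited raw counts per gene, adding those of identifiers with a common gene name. The strand setting is not given in the sources used here. The table was used as deposited, with all 12 columns mapped to a sample by name.

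Genes with a mean of at least 1 count and 1 CPM over the 12 libraries were tested (12998). Counts were scaled by trimmed means of M-values (TMM) and fitted with edgeR 4.0.16 (R 4.3.3) as 4 group means with 8 residual degrees of freedom. Contrasts were tested by the quasi-likelihood test with Benjamini-Hochberg adjustment over all tested genes, and called at an adjusted p under 0.05. The study used limma; limma-voom (limma 3.58.1) and DESeq2 1.42.0 were alternatives, beside other scalings, filters, thresholds, a replicate block, smaller sets of groups and leaving out each library. Adding pseudogene rows was chosen after seeing the data. Intervals are normal approximations at 95%. The scripts were tested on simulated data.

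The members and the lists were chosen with earlier results of these data known. Besides the members and FLT3, the text names, from each list, the called genes averaging 10 CPM or more that had the largest changes with quizartinib in RPMI and between media with quizartinib, up to 2 in each direction, and for each member the genes with the nearest pattern. EEF1A2, DHPS and the CALM3 value in RPMI, GSPT2, PRKAA2, PRKAA1 and TRMT112 fall outside this rule and were named after their values were seen. A gene that the rule names is not reported here. Gene positions and exon lengths came from GENCODE release 44 on GRCh38, and start-site sequences from RefSeq on GRCh38.p14.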

Additional observations from a re-analysis of the deposited data

Results flagged for a closer look

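The response to quizartinib differed between hBMSC-CM and RPMI for 5 of the 8 measured factors, by the interaction term of edgeR's quasi-likelihood test over all 12 libraries. The response in hBMSC-CM minus that in RPMI was 1.05 on the log2 scale for ABCE1 (adjusted p = 6.27e-11), 0.73 for GSPT1 (adjusted p = 6.93e-09), 0.64 for ETF1 (adjusted p = 1.29e-08) and 0.52 for EEF2K (adjusted p = 3.5e-06). For EEF2 it was −0.23 (adjusted p = 0.0158), and this value did not pass the test without hBMSC-CM vehicle replicate 2 or hBMSC-CM quizartinib replicate 2. The same term was called for 45.2% of all tested genes.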

How the results depend on the processing

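Of 1280 refits of the factors' 56 log2 fold changes under other settings, 1187 kept their direction and their side of the threshold, 30 lost the call, 30 gained it and 33 changed sign, and 38 of the 56 kept both throughout. None of the 33 sign changes, which touched 9 of the 56 values, was of a value called with all libraries and TMM, and 31 were called neither there nor in the refit. The other 2 were EEF1B2 in hBMSC-CM vehicle against RPMI quizartinib, −0.104 with library size alone (adjusted p = 0.0401) and −0.126 with upper-quartile factors (adjusted p = 0.0208), scalings that moved the median of all genes to −0.12 and −0.14. With library size alone, EEF1B2 and EEF2K gave 0.090 and 0.015 for quizartinib in hBMSC-CM, EEF1A1 gave −0.016 between media with vehicle, and EEF1D gave −0.067 for hBMSC-CM vehicle against RPMI quizartinib. With upper-quartile factors, EEF1D gave 0.000 for quizartinib in RPMI and −0.090 for hBMSC-CM vehicle against RPMI quizartinib, EEF1B2 gave 0.069 for quizartinib in hBMSC-CM, and EEF1A1 gave −0.025 between media with vehicle. Without the filter, EEF1B2 gave −0.014 for quizartinib in RPMI and 0.065 between media with quizartinib, and EEF1D gave 0.014 for the interaction. In hBMSC-CM vehicle against RPMI quizartinib, EEF1B2 and EEF1D were instead called higher without the filter. The values were 0.109 for EEF1B2 (adjusted p = 0.0329) and 0.145 for EEF1D (adjusted p = 0.00388). With a mean of at least 5 CPM, EEF1B2 gave 0.029 for quizartinib in hBMSC-CM, EEF1A1 gave −0.005 between media with vehicle, and EEF1B2 and EEF1D gave −0.054 and −0.018 for hBMSC-CM vehicle against RPMI quizartinib, where EEF1B2 gave −0.008 in a fit of these groups alone. Leaving out 1 library at a time also changed signs, with ranges of −0.063 to 0.02 for EEF1B2 with quizartinib in hBMSC-CM, −0.057 to 0.016 for EEF1B2 between media with quizartinib, −0.041 to 0.038 for EEF1A1 between media with vehicle, −0.027 to 0.044 for EEF1B2 and −0.024 to 0.088 for EEF1D in hBMSC-CM vehicle against RPMI quizartinib, and −0.117 to 0.002 for the EEF1D interaction. At an adjusted p under 0.01, 2692 genes were called in hBMSC-CM against RPMI with vehicle, against 4174. Leaving out 1 library at a time gave 9912 to 10404 called genes for quizartinib in RPMI, 8153 to 8766 in hBMSC-CM, 8441 to 9214 between media with quizartinib, 3310 to 4336 with vehicle and 5359 to 5860 for the interaction. Replicates with the same number did not deviate together (correlations −0.227 to 0.098). These values show no shared deviation, but they cannot tell whether libraries of the same number were handled together, which the sources do not state. With the replicate block, 10224 genes were called for quizartinib in RPMI and 8962 between media with quizartinib, where EEF1A1 lost its call (adjusted p = 0.0641) and EEF1D gained one (adjusted p = 0.0491). The block changed no other call of a factor.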
